A study of Mus musculus with 2 samples.

Results

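The 10 genes described here were Efnb1, Efnb2 and Efnb3, which encode the ephrin-B ligands, Efna1 and Efna5, which encode ephrin-A ligands, Ephb2, Ephb3, Ephb4 and Ephb6, which encode EphB receptors, and Epha2, which encodes an EphA receptor. They were chosen by name as genes of cell boundaries and not by their measured values, though with earlier results of these data known. All 10 were found among the 19550 genes of the count table. The table holds single cells from the esophagus, the gastroesophageal squamocolumnar junction (GE-SCJ) and the stomach of wild type C57BL/6 mice, taken at embryonic day 15 (E15), at E19, from pups of 2 days and from adults of 8 weeks. No group carried a transgene or a treatment, and the adult stomach was not analysed here, which left 11 groups of region and stage. The comparisons asked how the genes differ between squamous and columnar epithelium, between the esophagus and the stomach, and between stages.

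Ephrins are membrane-bound ligands, and Eph receptors are receptor tyrosine kinases that bind them on neighbouring cells, so that both partners of a contact can signal. Ephrin-A ligands are held by a lipid anchor and mainly bind EphA receptors, whereas ephrin-B ligands span the membrane and mainly bind EphB receptors. The system is best known for sorting cells into separate territories and for keeping tissue borders sharp. In the intestine, EphB receptors and ephrin-B ligands form opposing gradients along the crypt, and in blood vessels ephrin-B2 and EphB4 mark arteries and veins.

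All cells came from 1 pooled library of 7808 barcodes, none of them shared, in which each cell carries a tag for its region and stage. Cells of several mice were pooled under each tag, so that every group stands for 1 sample. No difference was therefore tested, and each 95% interval covers counting error alone. Levels are given as CPM, for which the unique molecular identifiers (UMIs) counted for a gene were added up across a group and scaled to a common library total. They come from a 3′ assay and were not compared between genes. The 11 groups held 143 to 1403 cells, with median depths between 4956.5 and 15676 UMIs per cell, the lowest in the pup esophagus. Each deposited class was highest for every marker of its own list, with 6 of 6 squamous markers highest in squamous cells and 8 of 8 columnar markers highest in columnar cells. The immune class served as a guide to RNA carried over from other cells. In it the members reached 0 to 24.0 CPM over 8 groups of at least 20 cells. Whether immune cells make some of this RNA themselves was not tested. Endothelial markers, which matter because endothelium had the highest Efnb2, summed to 0.644 to 9.28 CPM in the squamous groups and to 2621 CPM in endothelial cells. Among adult-tagged squamous cells, 74 of 232 in the esophagus and 12 of 87 at the GE-SCJ held at least 500 CPM of H19, a gene of fetal tissue. The adult levels of squamous cells are given with and without them where they moved. Adult log2 ratios over E15 and along the keratin order described below are given with them only. Without them, a setting added after seeing the data, 39 of these ratios stayed within their intervals and 1 did not. The contrasts of cycling cells are given with them only.

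The ligand Efnb2 and the receptors Epha2 and Ephb2 were past 2-fold higher in esophageal squamous than in stomach columnar cells. This held at E15, E19 and in pups. The 250 bases before the RefSeq start sites (GRCm38.p6) are shown for Efnb2 and Epha2 and not for Ephb2, a choice made after the values were seen. Efnb2 lies on the minus strand of chromosome 8 at 8617434 to 8661242, and its upstream bases are chr8:8661243-8661492. Epha2 lies on the plus strand of chromosome 4 at 141301240 to 141329384 (both gene spans from GENCODE M21, GRCm38), and its upstream bases are chr4:141300971-141301220. Capitals mark matches on either strand to 5 short motifs searched by their letters, CATTCC (TEAD), CTTTGA (TCF/LEF), TGANTCA (AP-1), GGGCGG (KLF/SP) and TTCCCA (RBPJ).
Efnb2: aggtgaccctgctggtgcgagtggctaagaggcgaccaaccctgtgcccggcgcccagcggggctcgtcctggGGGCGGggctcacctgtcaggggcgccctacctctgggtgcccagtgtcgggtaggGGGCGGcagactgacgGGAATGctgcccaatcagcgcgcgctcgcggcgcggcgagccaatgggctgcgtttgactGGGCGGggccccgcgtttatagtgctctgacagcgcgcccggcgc
Epha2: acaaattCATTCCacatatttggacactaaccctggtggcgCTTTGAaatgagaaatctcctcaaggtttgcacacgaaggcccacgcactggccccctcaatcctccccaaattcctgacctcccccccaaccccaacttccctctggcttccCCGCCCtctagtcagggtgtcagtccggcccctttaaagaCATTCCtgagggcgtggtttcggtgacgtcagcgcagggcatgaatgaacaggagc
These 2 were the only members with CATTCC upstream, which 12.6% of the 32851 promoters of the same length held, and Epha2 was also the only one with CTTTGA, held by 13.8%. GGGCGG was present in 8 of the 10 promoters found for 9 members and in 32.7% of all promoters, and TGANTCA was in none of the 10 and in 6.75% of all. Efnb1 alone held TTCCCA, which 21.6% of promoters did, Ephb2 held none of the 5 motifs, and Efnb3 had no entry. A match of letters is a description and not a binding site, and the member promoters named here were rich in G and C, with 72.0% for Efnb2 and 55.6% for Epha2 against a median of 52.4%.

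Across the 8 cell classes, summed over regions and stages, each ligand and receptor had its own distribution. Efnb2 was highest in endothelial cells at 172 CPM and next in squamous cells at 80.3 CPM, while columnar cells held 16.1 CPM and immune cells 9.56 CPM. Efnb1 reached 80.6 CPM in fibroblast-type cells and 108 CPM in the second stromal label, which carried mesothelial markers, and 54.7 CPM in squamous against 15.9 CPM in columnar cells. Efnb3 was low in every class, between 0.797 CPM in immune and 14.9 CPM in mesothelial-like cells, and its 1.59 CPM in squamous and 0.972 CPM in columnar cells were close to the immune level. Efnb1 and Efnb2 were thus higher in squamous than in columnar epithelium, and 62.3% of the 624 UMIs of Efnb3 were in fibroblast-type cells.
Among the ephrin-A ligands, Efna1 was highest in endothelial cells at 112 CPM and Efna5 in mesothelial-like cells at 134 CPM and neural cells at 91.3 CPM. The receptor Ephb4 was also highest in endothelium at 124 CPM, Ephb2 was at 59.5 CPM in neural and 52.0 CPM in fibroblast-type cells, and Ephb3 was at 45.4 CPM in fibroblast-type cells. Ephb6, whose kinase domain is inactive, reached 25.3 CPM in mesothelial-like and 17.9 CPM in squamous cells and 1.02 CPM in columnar cells, and none of its 531 UMIs was in an endothelial cell, where 3 counts would have been 1.68 CPM. Epha2 was highest in squamous cells, 46.7 CPM against 16.6 CPM in columnar and 3.02 CPM in fibroblast-type cells.

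**Figure D1:**
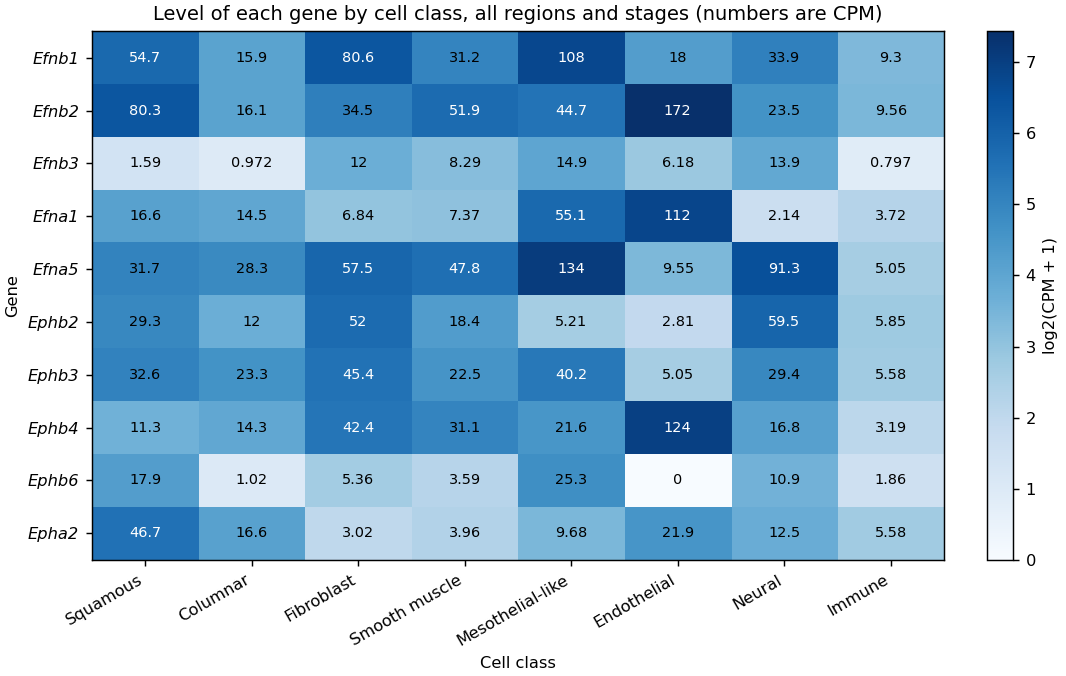
Level of each of the 10 genes (rows) in the 8 cell classes (columns), with the CPM printed in each field and the shade giving log2(CPM + 1). Efnb2 and Ephb4 are darkest in endothelial cells (172 and 124 CPM), and Epha2 in squamous cells (46.7 CPM); shades are to be read along a row, since levels of different genes were not compared.

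At the GE-SCJ, squamous and columnar cells come from the same dissected tissue, and here Efnb2 was higher in squamous cells at each stage. It was 107 CPM (95% interval 87.0 to 131) in 47 squamous cells and 37.8 CPM (28.0 to 49.8) in 53 columnar cells at E15. At E19 it was 70.5 CPM in 34 squamous and 22.6 CPM in 274 columnar cells, and in pups 34.3 CPM in 46 squamous and 6.96 CPM in 291 columnar cells. The log2 ratios of squamous over columnar were 1.49 (0.99 to 2.01), 1.67 (1.13 to 2.18) and 2.34 (1.59 to 3.05), so that the level was lower at each later stage in both lineages and the ratio was not, the intervals of the ratios overlapping. The columnar values at E19 and in pups were within the range of all members in immune groups, 0 to 24.0 CPM. Efnb2 itself was 9.56 CPM (6.70 to 13.2) in the immune class. The E19 columnar level (19.3 to 26.4) was above that, and the pup level was not. The range of all members also covered other columnar values, such as those of Efnb1 and Epha2 at the 3 stages. In the immune class itself Efnb1 was 9.30 CPM (6.48 to 12.9) and Epha2 5.58 CPM (3.45 to 8.53). The E19 columnar levels were above these, with intervals of 14.8 to 21.1 CPM for Efnb1 and 19.8 to 27.0 CPM for Epha2. So was Epha2 in pups (9.93 to 14.8 CPM). The other columnar intervals of the 2 genes at these stages overlapped with the immune ones. In adults the GE-SCJ held 87 squamous cells with 29.0 CPM and only 19 columnar cells with 7 UMIs of Efnb2 (14.1 CPM), under the minimum of 20 cells set for a comparison.
Efnb1 showed the same direction. Its level was 48.7, 42.7 and 67.2 CPM in squamous and 15.9, 17.7 and 14.9 CPM in columnar cells at E15, E19 and in pups, and the log2 ratios were 1.58 (0.82 to 2.39), 1.32 (0.62 to 1.95) and 2.19 (1.67 to 2.69). Its columnar level therefore stayed between 14.9 and 17.7 CPM. In adults it was 78.6 CPM in squamous and 18.2 CPM in columnar cells, the latter from 9 UMIs. Against the same 19 columnar cells, under the minimum for a comparison, Ephb2, Ephb4 and Ephb3 were lower in adult squamous cells. They were 8.37, 7.73 and 27.7 CPM against 26.2, 26.2 and 44.4 CPM, whereas Ephb6, Epha2 and Efna1 were higher. The intervals of the log2 ratio included 0 for Ephb3 (-1.47 to 0.08), Epha2 (-0.19 to 2.20) and Efna1 (-0.05 to 3.40). Of the 19 columnar cells, 7 held at least 500 CPM of H19. Without the adult-tagged cells rich in H19, the 10 adult ratios at the GE-SCJ stayed within their intervals.
Among the receptors, Epha2 was 28.7, 79.8 and 44.8 CPM in squamous and 11.3, 23.2 and 12.2 CPM in columnar cells, with log2 ratios of 1.81 (1.29 to 2.30) at E19 and 1.91 (1.28 to 2.50) in pups; at E15 it had under 50 UMIs over both groups. Ephb2 was alike in the 2 lineages at E15, with 37.6 CPM in squamous and 34.7 CPM in columnar cells and a log2 ratio of 0.12 (-0.55 to 0.79), and higher in squamous cells at E19, with 57.5 against 16.6 CPM and a log2 ratio of 1.83 (1.22 to 2.40). Ephb3 was within 2-fold at E15 and in pups, at 31.0 CPM in both lineages at E15, and at the 2-fold limit at E19 (48.2 against 24.0 CPM, log2 ratio 1.05, 0.41 to 1.64). Of the 34 squamous cells at E19, 4 carried a second squamous label, and without them the E19 ratio was 0.58 for Ephb3, within 2-fold, and 1.25 for Epha2. Ephb4 had the other direction before birth: squamous cells held 11.1 CPM against 27.9 CPM at E15 (47 UMIs over both groups) and 1 UMI (1.86 CPM) against 18.4 CPM at E19 (log2 ratio -2.32, -5.38 to -0.44), but 19.4 against 9.89 CPM in pups. Ephb6 had few UMIs, with 11 in squamous and 2 in columnar cells at E15, 3 and 11 at E19, and 8 and 4 in pups, or 11.9 against 0.488 CPM at the last stage. Efna5 stayed within 2-fold at the 3 stages, and Efna1 passed it at E19 only, with 24.1 against 12.6 CPM (log2 ratio 1.03, 0.11 to 1.85). Efnb3 had 3, 11 and 7 UMIs over both groups.
Past 2-fold at E15 were 2 of the 5 members with at least 50 UMIs over both groups, both higher in squamous cells, a share to be set beside 4.42% of 6115 genes higher and 6.95% lower. At E19, 6 of 8 members, Ephb3 among them, were past 2-fold higher and 1 lower, against 8.85% and 12% of 9509 genes, and in pups 4 of 7 were higher and 0 lower, against 10.4% and 16.2% of 9582 genes. The median log2 ratio of the members tested was 0.12, 1.19 and 1.06 at the 3 stages, and that of all genes -0.08, -0.09 and -0.03.

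**Figure D2:**
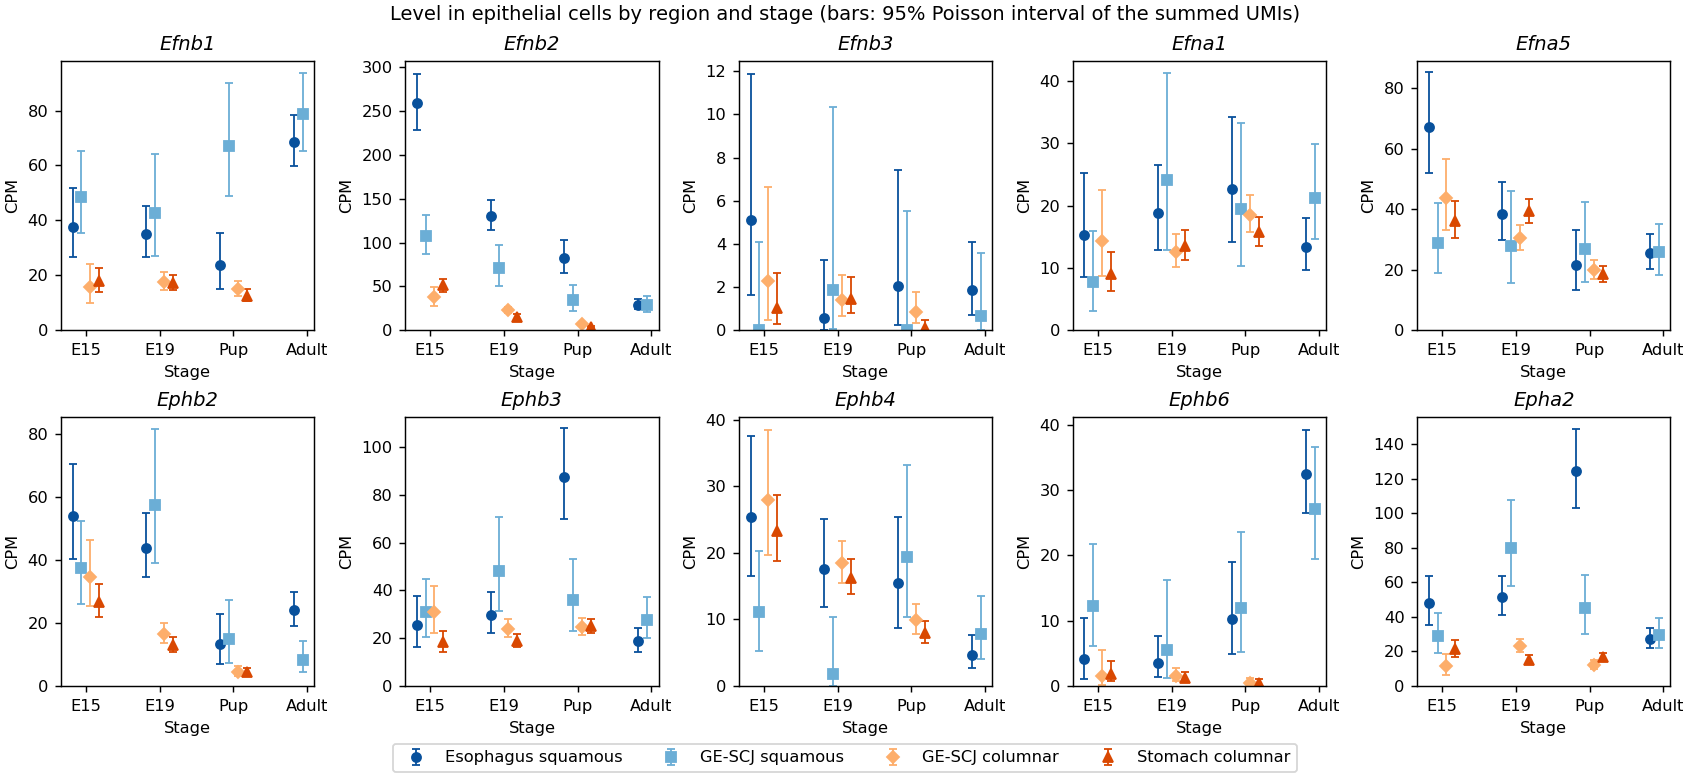
CPM of each gene (y axes differ between panels) by stage in squamous cells of the esophagus and GE-SCJ and in columnar cells of the GE-SCJ and stomach; points are groups of at least 20 cells and bars the 95% Poisson interval of the summed UMIs. Efnb2 starts at 259 CPM in the E15 esophagus and ends at 29.3 CPM in the adult, whereas Ephb6 is highest in the adult squamous groups (32.4 and 27.1 CPM).

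For Efnb2 the contrast of squamous and columnar cells was wider between the esophagus and the stomach than at the GE-SCJ. For Efnb1 it was not. Efnb2 reached 259 CPM (228 to 292) in 64 esophageal squamous cells at E15 against 51.0 CPM (44.1 to 58.7) in 140 stomach columnar cells. At E19 it was 130 CPM (123 cells) against 15.4 CPM (366 cells), and in pups 82.3 CPM (85 cells) against 3.94 CPM (351 cells). Log2 ratios of 2.34 (2.07 to 2.61), 3.08 (2.77 to 3.39) and 4.37 (3.83 to 4.92) correspond to folds of 5.06, 8.45 and 20.7, each interval lying above the one before it. After thinning every cell to 5000 UMIs, 69.0% (55.5 to 80.5) of esophageal squamous cells and 25.2% (18.2 to 33.2) of stomach columnar cells at E15 held a UMI of Efnb2, and 32.0% (24 of 75 cells) and 1.47% (5 of 341) did in pups, where the immune class as a whole had 3.95% (1.91 to 7.15). Without thinning the pup shares were 49.4% and 10.54%, and that of the immune class 5.93%, at median depths of 9198, 29810 and 8266.5 UMIs. The thinned share of stomach columnar cells in pups was thus below that of the immune class, which joined all regions and stages. Without thinning the columnar share was the higher one.
Within the squamous lineage the esophagus had more Efnb2 than the GE-SCJ at 3 stages, 259 against 107 CPM at E15, 130 against 70.5 CPM at E19 and 82.3 against 34.3 CPM in pups, with intervals that did not overlap, and the adult intervals overlapped at 29.3 (23.7 to 35.8) and 29.0 (21.1 to 38.8) CPM.
Efnb1 was 37.7, 35.1 and 23.6 CPM in esophageal squamous and 17.9, 17.3 and 12.6 CPM in stomach columnar cells, with log2 ratios of 1.09, 1.04 and 0.96, all with intervals above 0. Ephb2 was lower in pups than at E15 in both lineages, 13.4 against 53.9 CPM in squamous and 4.38 against 26.7 CPM in columnar cells, and the log2 ratios were 1.03 (0.53 to 1.52), 1.75 (1.32 to 2.17) and 1.69 (0.72 to 2.56). Epha2 was 47.8, 51.5 and 124 CPM in squamous and 21.2, 15.2 and 16.6 CPM in columnar cells, with log2 ratios of 1.18, 1.77 and 2.91 (2.57 to 3.24). The pup esophagus held 29 cells of a second squamous label, and the other 56 had 38.5 CPM of Efnb1, with a log2 ratio of 1.67 in place of 0.96. The squamous level of Epha2 in the first label alone was 47.8, 43.4 and 42.0 CPM at the 3 stages and its ratio 1.53 at E19 and 1.39 in pups, so that its higher pup values were not seen there.
Ephb3 was within 2-fold at E15 (25.5 against 18.4 CPM) and E19 (29.8 against 18.9 CPM) and then 87.4 against 25.0 CPM in pups, a log2 ratio of 1.82 (1.45 to 2.17). Ephb4 had log2 ratios of 0.17 (-0.52 to 0.81) and 0.15 (-0.46 to 0.71) before birth and was 15.4 against 7.97 CPM in pups (log2 ratio 1.03, 0.16 to 1.81). Ephb6 had 10 UMIs in pup squamous cells (10.3 CPM) and 5 in columnar cells (0.438 CPM). Efna1 and Efna5 stayed within 2-fold at the 3 stages, at 15.3 against 9.06 CPM and 67.2 against 36.3 CPM at E15, and Efnb3 had at most 15 UMIs over both groups.
Of 8 members with at least 50 UMIs, 4 were past 2-fold higher at E15, 4 at E19 and 5 in pups, and 0 were past 2-fold lower at any of the 3 stages. Among all genes tested, 8.68%, 10.4% and 12.6% were higher and 8.45%, 12.3% and 24.6% lower. The members' median log2 ratios were 0.97, 0.86 and 1.36, and those of all genes 0.05, -0.05 and -0.22.

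**Figure D3:**
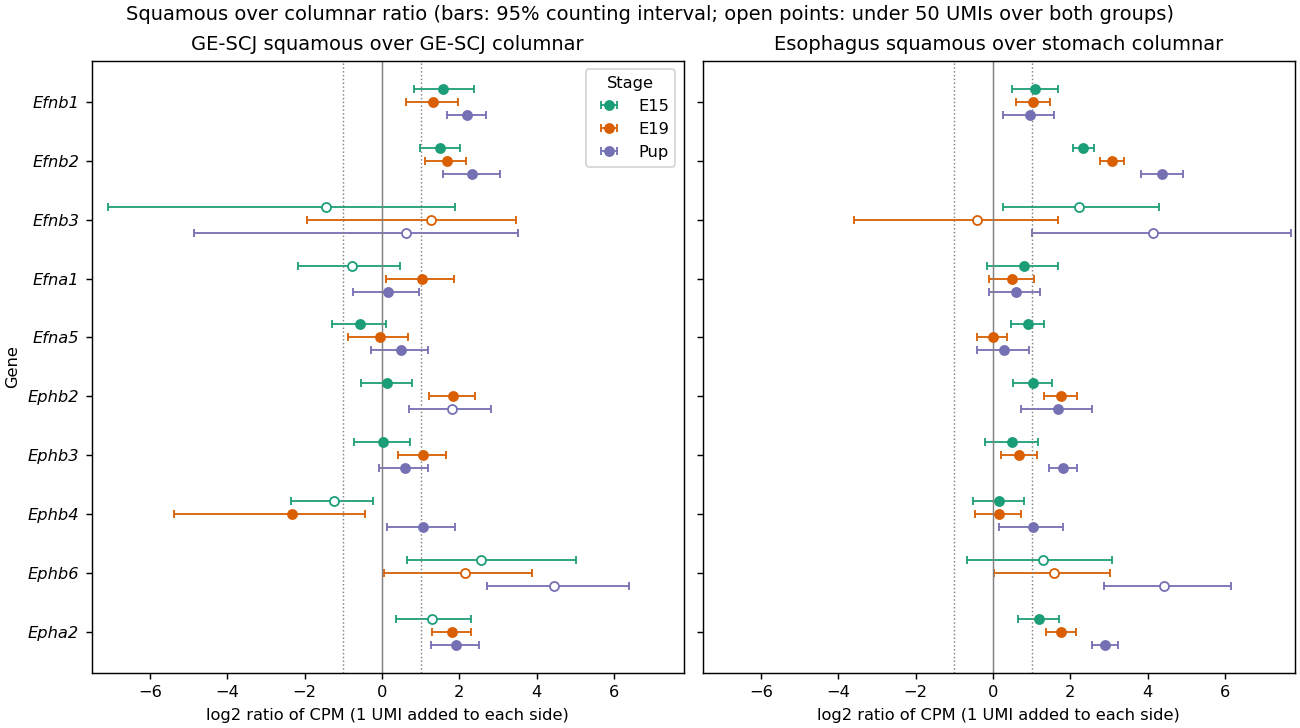
Log2 ratio of CPM, squamous over columnar, for each gene (y axis) at E15, E19 and in pups, at the GE-SCJ (left) and between esophagus and stomach (right); bars are 95% counting intervals, dotted lines mark 2-fold and open points have under 50 UMIs. Efnb2 lies furthest right among the filled points of the esophagus and stomach panel in pups (4.37), and Ephb4 at E19 is the one filled point left of the 2-fold line (-2.32).

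A second squamous label of 40 cells, 29 of them from the pup esophagus, carried much of the Epha2 and Ephb3. In the whole label Epha2 was 248.6 CPM (209 to 294) and Ephb3 191 CPM (156 to 231), against 35.7 and 23.9 CPM in the 690 cells of the first squamous label. The other members were low there: Efnb1 and Efnb2 had 3 UMIs each (5.40 CPM), Efna5 had 2, Efna1 had 7, and Ephb2, Ephb4, Ephb6 and Efnb3 had 0, where 3 counts would be 5.40 CPM. By the squamous markers these cells were unusual. Krt13, a keratin of suprabasal cells, was at 8826 CPM against 13736 CPM in the first label, and Krt4 at 1697 against 8781 CPM. Trp63, the transcription factor of basal squamous cells, and Col17a1, a basal adhesion protein, were at 0 UMIs. Of the basal keratins, Krt5 and Krt14 were at 12.6 and 5.40 CPM against 1188 and 548 CPM, and Krt15 at 1439 against 2645 CPM. Krtdap, Lor and Sprr3 were at 23.4, 7.21 and 189 CPM against 8147, 1693 and 1000 CPM, and Grhl3 at 68.5 against 64.2 CPM. Msln, listed here as a mesothelial marker, was at 881 CPM against 27.6 CPM in the first label. The other genes of the mesothelial list were not raised, with Upk3b at 5.40 CPM against 5.71 CPM and Wt1 at 0 UMIs in the second label. Their median depth of 11552 UMIs was close to the 12028.5 UMIs of the first label. Since the labels come from clustering on all genes, these contrasts describe the label and test nothing.
In the pup esophagus the 56 cells of the first label held 10.51 CPM of Ephb3 and 42.0 CPM of Epha2, and the 29 cells of the second 197 and 241 CPM. With the first label alone, the pup ratio of esophageal squamous over stomach columnar was -1.03 for Ephb3 in place of 1.82 and 1.39 for Epha2 in place of 2.91, while that of Efnb2 was 5.08 in place of 4.37. The higher pup level of Ephb3 thus rested on the second label, while Epha2 was past 2-fold over the columnar cells without it.

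Stratified squamous epithelium renews from basal cells that express Krt5, Krt14 and Krt15, and differentiating cells switch to Krt4 and Krt13. Cells of each group were therefore ranked by the share of Krt13 and Krt4 among these 5 keratins and cut into 3 groups of equal size, named low, middle and high, and the members were compared between these groups. Efnb1 in the adult esophagus was 130 CPM (104 to 161) in the low group, 106 CPM in the middle and 29.3 CPM (21.9 to 38.4) in the high group, a log2 ratio of high over low of -2.14 (-2.66 to -1.63). At the adult GE-SCJ it was 128, 118 and 42.4 CPM (-1.59, -2.26 to -0.92). Ephb2 in the adult esophagus followed the same direction, with 49.4, 37.8 and 8.46 CPM from 33, 29 and 15 UMIs (-2.50, -3.45 to -1.60), under the minimum of 50 UMIs over the low and high groups. Ligand and receptor were thus both highest in the low group of the adult esophagus, whereas Ephb2 at the adult GE-SCJ had only 5, 6 and 2 UMIs.
Efnb2 had this direction before and just after birth and not in adults. It was 302, 281 and 187 CPM in the 3 groups at E15, 189, 183 and 47.0 CPM at E19 (log2 ratio -1.98, -2.59 to -1.40), and 127, 145 and 19.9 CPM in pups. In the adult esophagus it was 32.9, 26.1 and 29.3 CPM (-0.20, -0.94 to 0.57). Without the cells of the second label, a setting chosen after seeing the data, the pup ratio was 0.30 in place of -2.57 (-3.75 to -1.51), and ordering the E19 cells by Krt4 and Krt14 alone gave -0.59. At the GE-SCJ the ratio of Efnb2 had an interval that included 0 at the 4 stages, with 15.2, 42.8 and 28.2 CPM in adults.
Epha2 had the opposite direction. In the esophagus it was 28.2, 57.5 and 60.4 CPM at E15, 11.3, 50.2 and 83.7 CPM at E19 (log2 ratio 2.69, 1.55 to 4.06), 19.8, 48.5 and 228 CPM in pups (3.27, 2.10 to 4.75, and 2.63 in the first label alone) and 21.0, 11.7 and 36.6 CPM in adults (0.73, -0.10 to 1.64). The high group was above the other two at each of the 4 stages, and the intervals at E15 and in adults included 0. At the GE-SCJ it was 31.5 against 134 CPM at E19 (1.89, 0.54 to 3.48), which became -1.92 when the cells were ordered by Krt4 and Krt14, 16.1 against 84.8 CPM in pups (2.05) and 6.08 against 38.8 CPM in adults (2.13, 0.46 to 4.48), each from under 50 UMIs. Ephb6 joined it in adults, with 5.99 CPM in the low group, 18.2 CPM in the middle and 48.5 CPM in the high group (2.71, 1.43 to 4.37), and 77.9% of its 104 UMIs in adult esophageal squamous cells lay in 24 of the 232 cells. In pups the order of Ephb6 was the reverse, from 9 UMIs in the low group to 0 in the high. Ephb3 was 16.5, 9.12 and 23.7 CPM in adults, and its pup ratio of 3.40 (11.9 against 166 CPM) was -1.03 without the second label. Median depth in the adult esophagus was 7420 UMIs in the low group and 17902 in the high, and its part in these CPM differences was not tested.

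**Figure D4:**
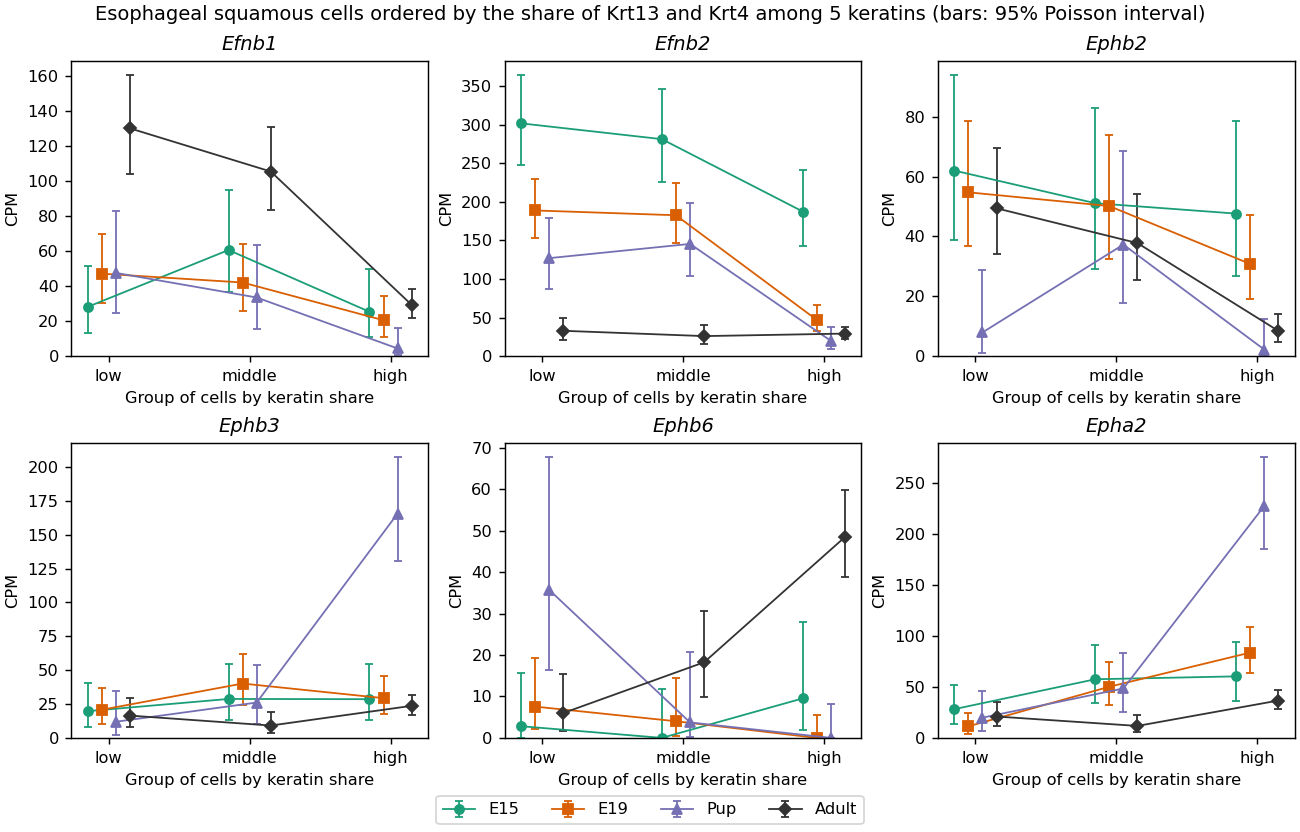
CPM of 6 genes in esophageal squamous cells cut into 3 equal groups by the share of Krt13 and Krt4 among Krt5, Krt14, Krt15, Krt13 and Krt4 (x axis), one line per stage, with 95% Poisson intervals. From the low to the high group, adult Efnb1 goes from 130 to 29.3 CPM, E19 Efnb2 from 189 to 47.0 CPM and E19 Epha2 from 11.3 to 83.7 CPM.

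In the gastric lineage, columnar cells were ranked by the share of the pit genes Tff1, Gkn1, Gkn2 and Muc5ac among these and the gland genes Muc6, Pgc and Tff2. Efna5 in the stomach was higher towards the pit end at E19 and in pups. It was 21.2, 39.5 and 57.5 CPM at E19 (log2 ratio of high over low 1.42, 1.03 to 1.83) and 11.7, 20.1 and 24.8 CPM in pups (1.07, 0.56 to 1.60). At E15 it was 42.9, 35.9 and 30.6 CPM (-0.48, -1.09 to 0.13). At the GE-SCJ its ratio was 0.35 (-0.13 to 0.84) at E19 and 0.84 (0.30 to 1.40) in pups. Ephb2 had the opposite course in the E19 stomach, at 18.3, 15.8 and 5.63 CPM (-1.65, -2.45 to -0.90), as had Efnb2, with 20.1, 16.9 and 9.48 CPM (-1.06, -1.70 to -0.44). At the E19 GE-SCJ the ratios were -0.43 (-1.09 to 0.23) for Ephb2 and -0.69 (-1.31 to -0.09) for Efnb2. Efnb1 in pups was higher at the pit end at both sites, 8.35 against 19.2 CPM in the stomach (1.18, 0.58 to 1.81) and 9.75 against 22.9 CPM at the GE-SCJ (1.20, 0.55 to 1.88), and Epha2 at the pup GE-SCJ was 3.70 against 19.9 CPM (2.33, 1.41 to 3.37). In the stomach the corresponding Epha2 values were 12.6 and 19.2 CPM (0.60, 0.07 to 1.14). Ephb3 stayed within 2-fold between the low and high groups in all 6 columnar groups.

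Cycling was read from Mki67, Top2a, Cenpf, Ccnb1 and Cdk1, comparing cells with at least 3 of their UMIs with cells that had none. Cells of all regions were joined within a class and stage. Cycling columnar cells had more Ephb2 at E19 (18.5 against 10.1 CPM, log2 ratio 0.86, 0.38 to 1.36) and in pups (6.78 against 2.55 CPM, 1.39, 0.58 to 2.23), and so did cycling squamous cells of adults (31.3 against 15.4 CPM, 1.02, 0.32 to 1.73). In the other groups the interval of Ephb2 included 0. Ephb3 had the other direction. It was lower in cycling columnar cells at E19 (17.3 against 27.5 CPM, -0.67, -1.03 to -0.32). In cycling adult squamous cells it was 14.4 against 31.2 CPM (-1.06, -1.89 to -0.29). Its intervals in the other columnar stages and in E15 and E19 squamous cells included 0. Epha2 was lower in cycling squamous cells at E19, at 15.4 against 78.1 CPM (-2.18, -3.36 to -1.20), and Ephb6 in those of adults, at 11.0 against 44.8 CPM (-1.93, -2.86 to -1.12). The adult contrasts of cycling cells were not repeated without the cells rich in H19. Adult squamous cells held 24.0 CPM of Ephb2 in the esophagus and 8.37 CPM at the GE-SCJ. The part of a different mix of regions in the adult Ephb2 ratio was not tested. Without the second squamous label, a setting chosen after seeing the data, the E19 ratio of Epha2 was -1.89 (-3.08 to -0.88). In pup columnar cells Epha2 was 19.3 CPM in cycling against 13.7 CPM in the other cells (0.50, 0.09 to 0.90), and in E19 squamous cells Ephb6 had 4 against 0 UMIs, so neither receptor was lower in every cycling group. In pup squamous cells Ephb3 was 11.6 against 95.5 CPM (-2.79), and -0.75 (-2.43 to 0.74) without the second label. Cycling cells were deeper, with medians of 11406 against 8455 UMIs in adult squamous and 38271.5 against 20257 UMIs in pup columnar cells.

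The epithelial contrast of esophagus and stomach set squamous against columnar cells, so that region and lineage could not be told apart. In the stroma, taken as fibroblast-type and smooth muscle cells together, Efnb2 had the other direction and was lower in the esophagus than in the stomach. It was 23.3 CPM (19.2 to 27.9) in 440 esophageal and 59.6 CPM (53.3 to 66.4) in 471 stomach cells at E15, and 16.7 CPM in 781 against 40.2 CPM in 861 cells at E19. Log2 ratios of esophagus over stomach were -1.35 (-1.67 to -1.04) and -1.26 (-1.57 to -0.96), and in pups -1.29 (-2.47 to -0.23) from 9 and 32 UMIs. In fibroblast-type cells alone the 3 regions stood in order at E15, with 21.3 CPM (16.9 to 26.4) in the esophagus, 40.6 CPM (34.4 to 47.6) at the GE-SCJ and 63.6 CPM (55.9 to 72.2) in the stomach. At E19 the esophagus was again lowest at 16.3 CPM, and the GE-SCJ (42.5 CPM, 37.3 to 48.2) and stomach (35.7 CPM, 31.3 to 40.6) had overlapping intervals. In the smooth muscle label at E15 the GE-SCJ was highest, with 90.0 CPM against 50.2 CPM in the stomach and 29.99 CPM in the esophagus.
Efna5 was also lower in the esophagus, with 33.0 against 67.3 CPM at E15 (log2 ratio -1.02, -1.30 to -0.75), 36.1 against 53.5 CPM at E19 (-0.56, -0.79 to -0.34) and 20.2 against 63.7 CPM in pups (-1.59, -2.47 to -0.78). Smooth muscle made up 22 of the 173 stromal cells of the pup esophagus and 113 of the 191 of the pup stomach, and fibroblast-type cells alone gave -1.92 from 12 and 34 UMIs, under the minimum of 50. Fibroblast-type cells of the GE-SCJ resembled the stomach in this gene, at 83.0 and 77.0 CPM at E15 against 37.3 CPM in the esophagus. Efnb1 had the opposite order at E15, with 114 CPM (104 to 125) in esophageal, 84.1 CPM in GE-SCJ and 69.9 CPM (61.8 to 78.8) in stomach fibroblast-type cells, and overlapping intervals at E19, at 76.9, 84.8 and 80.5 CPM. The receptors Ephb2, Ephb3 and Ephb4 differed less, with log2 ratios between -0.17 and 0.44 over the 3 stages. The 4 endothelial markers summed higher in esophageal than in stomach fibroblast-type cells, at 40.7 against 13.6 CPM at E15 and 74.1 against 23.3 CPM at E19, with all 4 detected. Whether endothelial RNA had a part in the stromal levels of Efnb2 was not tested.
Of the 9 members with at least 50 UMIs at E15, 2 were past 2-fold lower in the esophagus and 0 higher, against 3.14% and 2.98% of 11058 genes. At E19, 1 of 9 was lower and 0 higher, against 5.64% and 3.65%, and in pups 1 of 3, Efna5, was lower and 0 higher, against 3.83% and 3.37%. Epha2, Ephb6 and Efna1 were at or below 8.66 CPM in the stroma of both organs at the 3 stages.

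**Figure D5:**
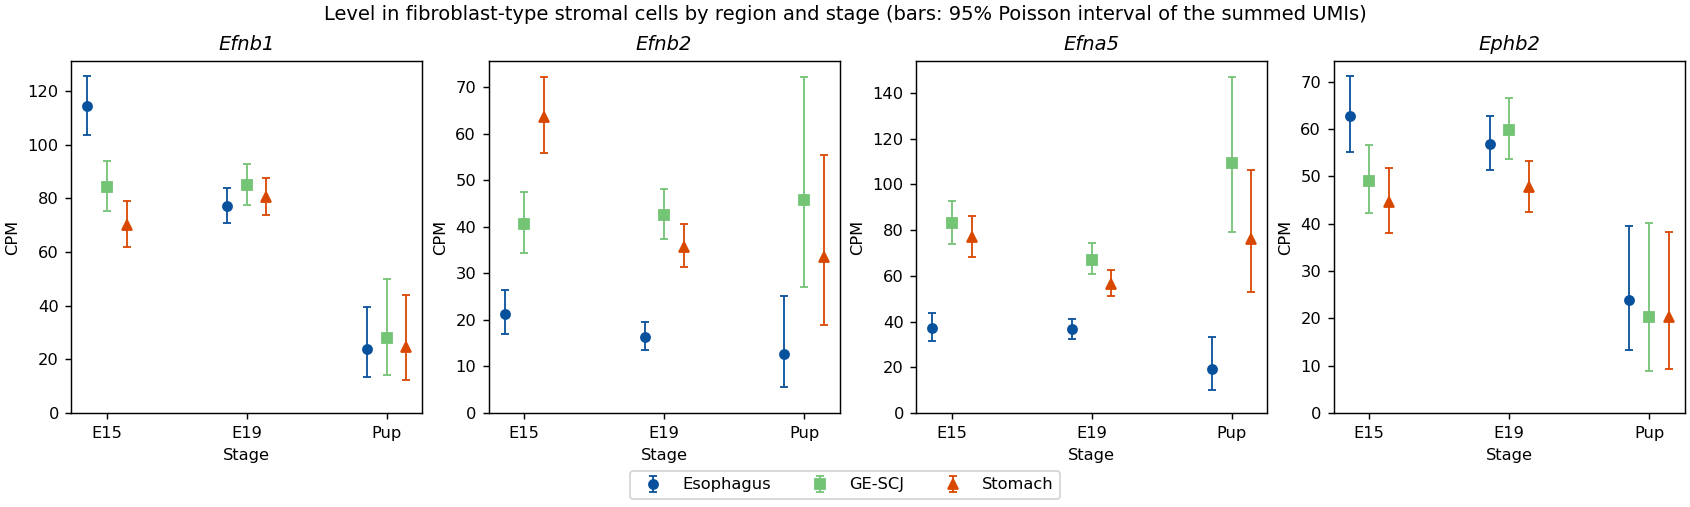
CPM of 4 genes in fibroblast-type cells of the esophagus, GE-SCJ and stomach (colours) at E15, E19 and in pups, with 95% Poisson intervals. Efnb2 and Efna5 are lowest in the esophagus at each stage (21.3 and 37.3 CPM at E15), and Efnb1 and Ephb2 are lower in pups than before birth in every region.

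Several members differed between stages. From E15 to pups, Efnb2 in stomach columnar cells went from 51.0 to 3.94 CPM (log2 ratio of E15 over pup 3.67, 3.20 to 4.17), Ephb2 from 26.7 to 4.38 CPM (2.59, 2.10 to 3.11) and Ephb4 from 23.3 to 7.97 CPM (1.55, 1.11 to 1.98), while Ephb3 went from 18.4 to 25.0 CPM (-0.43, -0.82 to -0.05). In stomach columnar cells 3 of 8 members were higher at E15 and 0 lower, against 20.9% and 9.32% of all genes. The ligand Efnb2 and its receptors Ephb2 and Ephb4 were thus lower in the pup than in the E15 gastric epithelium, and Ephb3 was not. In esophageal squamous cells Efnb2 (1.64, 1.27 to 2.02), Ephb2 (1.93, 1.06 to 2.90) and Efna5 (1.59, 0.88 to 2.36) were higher at E15, and Ephb3 (-1.74) and Epha2 (-1.36) lower, which is 3 and 2 of 6 members against 33.9% and 9.44% of all genes. The median of all genes in this comparison was itself 0.67. With the first squamous label alone the value was 0.93 for Efnb2, 1.11 for Ephb3 and 0.16 for Epha2. Efna5 was then within 2-fold, with 67.2 CPM at E15 and 35.0 CPM in pups, and Ephb2 was 53.9 and 22.8 CPM.
In the stroma, Efnb1, Efnb3 and Ephb2 were higher at E15 than in pups. In esophageal stroma Efnb1 went from 96.9 to 25.6 CPM (1.85, 1.21 to 2.57), Ephb2 from 52.2 to 20.2 CPM (1.28, 0.55 to 2.11), and Efnb3 from 12.9 CPM to 0 UMIs, at least 3.20-fold when the pup is set at 3 counts. The log2 ratios of Ephb3 and Ephb4 were 0.10 (-0.45 to 0.69) and 0.05 (-0.49 to 0.64). In stomach stroma Ephb2 (39.1 to 14.9 CPM) and Efnb3 (82 UMIs in 471 cells and 5 UMIs in 191 cells, log2 ratio 1.35) passed 2-fold, and Efnb1 did not (0.88, 0.35 to 1.46). The make-up of this stroma differed, with 360 fibroblast-type and 111 smooth muscle cells at E15 and 78 and 113 in pups. In its fibroblast-type cells alone, a setting chosen after seeing the data, the log2 ratios were 1.00 for Ephb2, just under 2-fold, from 9 UMIs in pups, 2.07 for Efnb3 from 1 UMI in pups, and 1.39 for Efnb1. That made 3 of 7 members higher at E15 in the esophagus, against 12% of all genes, and 2 of 7 in the stomach, against 11.5%, with 0 lower in either, against 9.58% and 8.77%.
From E15 to adult, squamous cells were lower in Efnb2 and higher in Ephb6. In the esophagus Efnb2 went from 259 to 29.3 CPM (log2 ratio of adult over E15 -3.13, -3.49 to -2.79), Efna5 from 67.2 to 25.6 CPM (-1.40) and Ephb2 from 53.9 to 24.0 CPM (-1.18), whereas Ephb6 went from 4 UMIs (4.07 CPM) to 104 UMIs (32.4 CPM; 2.68, 1.42 to 4.34) and Efnb1 from 37.7 to 68.5 CPM (0.83, 0.33 to 1.37). This was 1 of 8 members higher and 3 lower, against 10.3% and 21.9% of all genes. At the GE-SCJ, Ephb6 went from 12.2 to 27.1 CPM (1.06, 0.11 to 2.12) and Efnb2 from 107 to 29.0 CPM (-1.87, -2.41 to -1.35), which was 1 of 6 higher and 1 lower, against 10.2% and 21.2%. Without the adult-tagged cells rich in H19, the esophageal adult levels were 31.0 CPM for Efnb2, 60.8 CPM for Efnb1, 36.6 CPM for Ephb6 and 18.5 CPM for Ephb2.

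The 157 endothelial cells were divided by the vessel list with the most UMIs, into 20 cells with arterial genes (Gja4, Gja5, Hey1, Sox17, Bmx), 102 with venous genes (Nr2f2, Aplnr, Vwf) and 18 with lymphatic genes (Prox1, Lyve1, Flt4), with 17 tied or without any. Efnb2, the ligand of arteries, was 575 CPM (462 to 709) in the arterial cells against 128 CPM (110 to 148) in the venous and 145 CPM (90.6 to 219) in the lymphatic cells. Ephb4, the receptor of veins, was 137 CPM (85.0 to 210), 121 CPM (104 to 141) and 125 CPM (75.1 to 195), with overlapping intervals. Efnb2 thus differed between the arterial cells and the venous and lymphatic cells beyond counting error, and Ephb4 did not. All 5 arterial genes were highest in endothelium, but only 2 of 3 venous and 2 of 3 lymphatic genes were. The venous list summed to 816 CPM in endothelial and 320 CPM in fibroblast-type cells. The lymphatic list summed to 441 CPM in endothelial and 426 CPM in immune cells. Whether Ephb4 differs between arteries and veins therefore cannot be read from these groups. Efna1 was 314 CPM (231 to 416) in the arterial against 89.5 CPM (74.4 to 107) in the venous cells. Arterial cells had a lower median depth, 6250 against 11187 UMIs.

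The other Eph and ephrin genes were counted from a list of 12, of which 10 were in the table. Epha4, a receptor that binds ligands of both classes, was past 2-fold higher in esophageal squamous than in stomach columnar cells at the 3 stages, at 64.1 against 15.5 CPM, 77.2 against 13.4 CPM and 28.8 against 3.33 CPM (log2 ratios 2.04, 2.53 and 3.13), and no other gene of that list was at every stage. Of the 4 of these genes with at least 50 UMIs, 2 were past 2-fold higher at E15 and at E19, and in pups 2 were higher and 1 lower. Of all genes, 8.68%, 10.4% and 12.6% were higher at the 3 stages, and 8.45%, 12.3% and 24.6% lower. In the stroma 2 of 7 were higher in the esophagus at E15 and E19, namely Epha5 (104 against 20.1 CPM at E15) and Epha3 (118 against 54.1 CPM), receptors of the ephrin-A ligands, of which Efna5 was the lower in the esophagus. Of all genes in the stroma, 2.98% were higher at E15 and 3.65% at E19.
Of 36 genes of ephrin and Eph signalling, 35 were measured. At the GE-SCJ, Tiam1, which encodes an exchange factor for Rac, was higher in squamous than in columnar cells at the 3 stages (log2 ratios 1.90, 2.75 and 4.28), as was the tight junction gene Cldn4 (1.20, 2.58 and 4.06), and Nck2, which encodes an adaptor protein, was lower (-1.97, -1.92 and -1.07). Between esophagus and stomach these were Tiam1 (3.51, 3.64 and 4.55), the phosphatase gene Ptpn13 (1.28, 2.21 and 2.55) and, lower, the exchange factor gene Ngef (-2.75, -1.23 and -1.61). Most of the list stayed within 2-fold: 17 of 20 genes tested at E15, 23 of 29 at E19 and 22 of 29 in pups at the GE-SCJ. Between esophageal squamous and stomach columnar cells 22 of 28, 23 of 31 and 22 of 29 did, and in the stroma 28 of 29, 27 of 30 and 18 of 18. At the GE-SCJ 2, 4 and 5 were higher, against 4.42%, 8.85% and 10.4% of all genes. There 1, 2 and 2 were lower, against 6.95%, 12% and 16.2%. Between esophagus and stomach 4, 5 and 4 were higher and 2, 3 and 3 lower, against the shares of all genes given above. In the stroma 1, 3 and 0 were lower, against 3.14%, 5.64% and 3.83%.

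Likeness of pattern was measured as Pearson's r of log2(CPM + 10) over 54 groups of class, region and stage with at least 20 cells, which share 1 library and differ in depth, among 13555 genes with at least 200 UMIs. The genes nearest to Efnb2 were Tspan12 (r = 0.75), Ctnnb1 (0.74) and Luzp1 (0.73), and those nearest to Epha2 were Stap2 (0.77), Itgb4 (0.76) and Cdcp1 (0.76). Ephb4 had the closest neighbours, Igf2r (0.87), Mpzl1 (0.86) and Gnas (0.86). Within the set, Ephb3 and Efna5 were nearest to each other (0.62), and Ephb2 was nearest to Ephb3 (0.61) and Efnb1 to Ephb3 (0.58), whereas Epha2 had no member above 0.31.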

How the data were processed

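Single-cell RNA-seq of mouse esophagus, GE-SCJ and stomach (10x Genomics 3′ v3.1 chemistry with CellPlex tags) was deposited as UMI counts. The authors made these counts with Cell Ranger 6.1.1 on the mm10 (GRCm38) mouse reference, assigned tags, removed barcodes with very few or very many genes or UMIs, or a high mitochondrial share, and took out subgroups of poor quality. The authors deposited no normalized values with them, only the UMI total, the percent of mitochondrial UMIs, the tag and the class label of each cell. The highest mitochondrial percent was 19.7%. No doublet caller was run here. Both deposited lists gave each of the 7808 cells an identical tag, and the summed UMIs matched the deposited totals.

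UMIs were summed by class, region and stage with Python 3.11.15, numpy 2.4.6, scipy 1.17.1 and pandas 2.3.3. The squamous class joined both squamous labels. Levels carry exact 95% Poisson intervals, shares Clopper-Pearson intervals, and log2 ratios (1 UMI added to each side) conditional exact intervals, all for counting error only; a sum of 0 was set beside 3 counts. Groups of at least 20 cells were compared, and a gene was counted past 2-fold only if both groups together held 50 UMIs of it or more. Shares of cells used cells thinned to 5000 UMIs (seed 1), which left out 1135 cells. The ratio and its interval were tried on group sums drawn from a Poisson model. That model held no spread between cells or mice, so it checks the calculation only. The named genes were the 10 members, the genes of the 2 lists past 2-fold in the same direction at E15, E19 and in pups, and the 3 genes nearest in pattern. The genes, lists and comparisons were chosen with earlier results of these data known. Alternatives changed the cells, library size, added UMI, fold and minimum count. The 3 non-coding genes annotated over Efnb2 on its strand were absent from the count table.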

Additional observations from a re-analysis of the deposited data

Results flagged for a closer look

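Of 240 pairs of effects of a member under the same kind of contrast, 4 went past 2-fold in opposite directions, and none of these differences was tested, since each group is 1 pooled sample. Efnb2 was higher in the esophagus than in the stomach in epithelium (squamous over columnar) and lower in stroma, with log2 ratios of 2.34 and -1.35 at E15, a difference of 3.69, and of 3.08 and -1.26 at E19, a difference of 4.34. The epithelial contrast differed in lineage as well as in region. Ephb4 at the GE-SCJ was lower in squamous than in columnar cells at E19 (-2.32) and higher in pups (1.06), a difference of -3.38 (first minus second). Set against the esophagus and stomach of pups (1.03) the same E19 value differed by -3.35, and it rests on 1 UMI in 34 squamous cells.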

How the results depend on the processing

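No paired analysis was possible because all groups come from 1 pooled library, and no replicate could be left out. Of the log2 ratios past 2-fold with at least 50 UMIs over both groups, 4 took the other sign, each when the 40 cells of the second squamous label were left out: Ephb3 in pup esophageal squamous over stomach columnar cells (-1.03), Ephb3 and Epha2 in E15 over pup esophageal squamous cells (1.11 and 0.16), and, in a setting added after seeing the data, Ephb3 along the pup squamous order (-1.03). Among those from under 50 UMIs, another 10 did in some setting. The number of members past 2-fold was unchanged or within 1.5 times under 102 of 124 alternatives. Thinning every cell to 5000 UMIs, which by construction leaves fewer genes at 50 UMIs, gave 0, 2 and 0 members at E15, E19 and in pups at the GE-SCJ, 1, 2 and 2 between esophageal squamous and stomach columnar cells, and 1, 0 and 0 between the stromas. In the same setting E15 over pup gave 2 in esophageal squamous, 1 in stomach columnar, 1 in esophageal stroma and 0 in stomach stroma, and adult over E15 gave 1 in the esophagus and 0 at the GE-SCJ. Counting 1.5-fold gave 5, 5 and 4 members for E15 over pup in stomach columnar cells, esophageal stroma and stomach stroma. After removal, for each member, of the 1% of cells of each group with the most UMIs of that member, E15 over pup in stomach stroma gave 4 and adult over E15 at the GE-SCJ 1. Fibroblast-type cells alone gave 0 in the pup stroma, and the first squamous label alone 1 for E15 over pup in the esophagus. For the last 4 of these counts the cause was not tested. Leaving out adult-tagged cells rich in H19, a setting added after seeing the data, changed neither count of adult over E15. Ordering by Krt4 and Krt14 moved 10 of 80 ratios along the squamous order. Few UMIs were counted for Efnb3 and Ephb6 in most epithelial groups, for Ephb4 in squamous cells and for most members in pup stroma. This limits their comparisons, and the part of depth in it was not tested.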
